A study of Homo sapiens with 2 samples.

Results

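The genes described here encode enzymes that write or remove methyl and acetyl groups on histone lysines. They were taken by name from the authors' table of all genes, as protein-coding genes whose symbol is KDM, KMT, KAT, SETD or HDAC followed by a number, together with EHMT1, EHMT2, NSD1, DOT1L, SETDB1, SETDB2, SUV39H1, SUV39H2, ASH1L, EP300 and CREBBP. KDM5D was not analysed here. This gave 62 genes of the 57773 in the table. The rule is by name and uses no measured value, although it was set with earlier results of these data known.

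The RNA was from MDA-MB-231 spheroids. MDA-MB-231 is an established human cell line of triple-negative breast adenocarcinoma, kept in medium with 10% serum. The Control group was 1 spheroid library labelled Control, and the TGS24 group was 1 spheroid library after exposure to TGS24, an agent named only by this code, with neither dose nor time in the labels. Total RNA was sequenced as 150-bp paired-end reads. With 1 library a group there is no replicate check and no p-value, and every statement below compares these libraries, not the conditions.

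Lysine methyltransferases mostly carry a SET domain and are specific for a residue, such as H3K4 at promoters and enhancers, H3K36 in transcribed gene bodies and H3K9 in heterochromatin. Demethylases are either flavin-dependent amine oxidases or JmjC dioxygenases that use iron and oxygen. Acetyltransferases open chromatin by neutralising lysine charge, and the zinc-dependent deacetylases reverse this within corepressor complexes. Mutations of KMT2C are recurrent in breast cancer, and inhibitors of HDAC and LSD1 enzymes are used or tested as cancer drugs.

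The table held 8570632 Control and 16145121 TGS24 reads in the rows used, and pairs of reads below are in the order Control, TGS24. Protein-coding genes held 41.6% of the Control and 54.2% of the TGS24 reads. RN7SL1, a small cytoplasmic RNA, held 40.8% and 31.4%, and RN7SK, a small nuclear RNA, 13.9% and 10.4%. The 10 genes fixed as marks of MDA-MB-231 had 8 rows in use, with 6327 and 7259 reads in sum, and 5 of the 7 measured ones were at least 2-fold lower in TGS24. Luminal markers summed to 162 and 208 reads, leukocyte markers to 112 and 216 with CD68 at 0, fibroblast markers to 180 and 228, and red cell genes to 5913 and 12427. Each marker list is thus present at some level in both libraries, and its part in the values below was not tested. In bulk RNA, fewer cells of a type and less RNA per cell cannot be told apart.

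Of the 62 genes, 52 had at least 20 reads over both libraries and were measured, 8 had 1 to 19 reads, and 2 had none. Together the 62 had 23026 and 55973 reads, which was 0.642% of the protein-coding reads in Control and 0.636% in TGS24. As a whole the group therefore took nearly the same share of coding reads in both libraries, while its members differed from each other. Ratios below are TGS24 over Control after TMM scaling, on a log2 scale with a prior count of 2, and the brackets of each ratio are a 95% counting interval on read pairs, which covers counting error only. The 2-fold call, in either direction, needs a log2 ratio of 1 or more in size and an interval without 0.

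SUV39H2, KDM3A, KAT6A, SETD7, KDM1B, KAT6B, SETD2, KDM7A, KDM6A, KDM5A and ASH1L were at least 2-fold higher in TGS24, 11 of the 52 measured genes, against 12.7% of all 10081 genes tested. No measured member was at least 2-fold lower, against 6.31% of all genes tested. The members are deeply covered, and coverage matters for this background. Among the 51 members with at least 100 reads 21.6% were higher, against 20.6% of the 5011 coding genes of that depth. Lower calls numbered 0 there, against 4.17%. The share of higher members is thus close to that of other well-covered coding genes and is not a result about these enzymes. The median log2 ratio of the measured members was 0.25, between -0.89 and 1.90, beside 0.00 over all genes tested and 0.17 over coding genes with at least 100 reads. Scaled to the totals of protein-coding genes the members' median was -0.10, with -0.34 for all genes. Of the 62 genes, 59 are listed in the authors' deposited table after filtering and 0 in the authors' deposited table of significant genes.

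**Figure D1:**
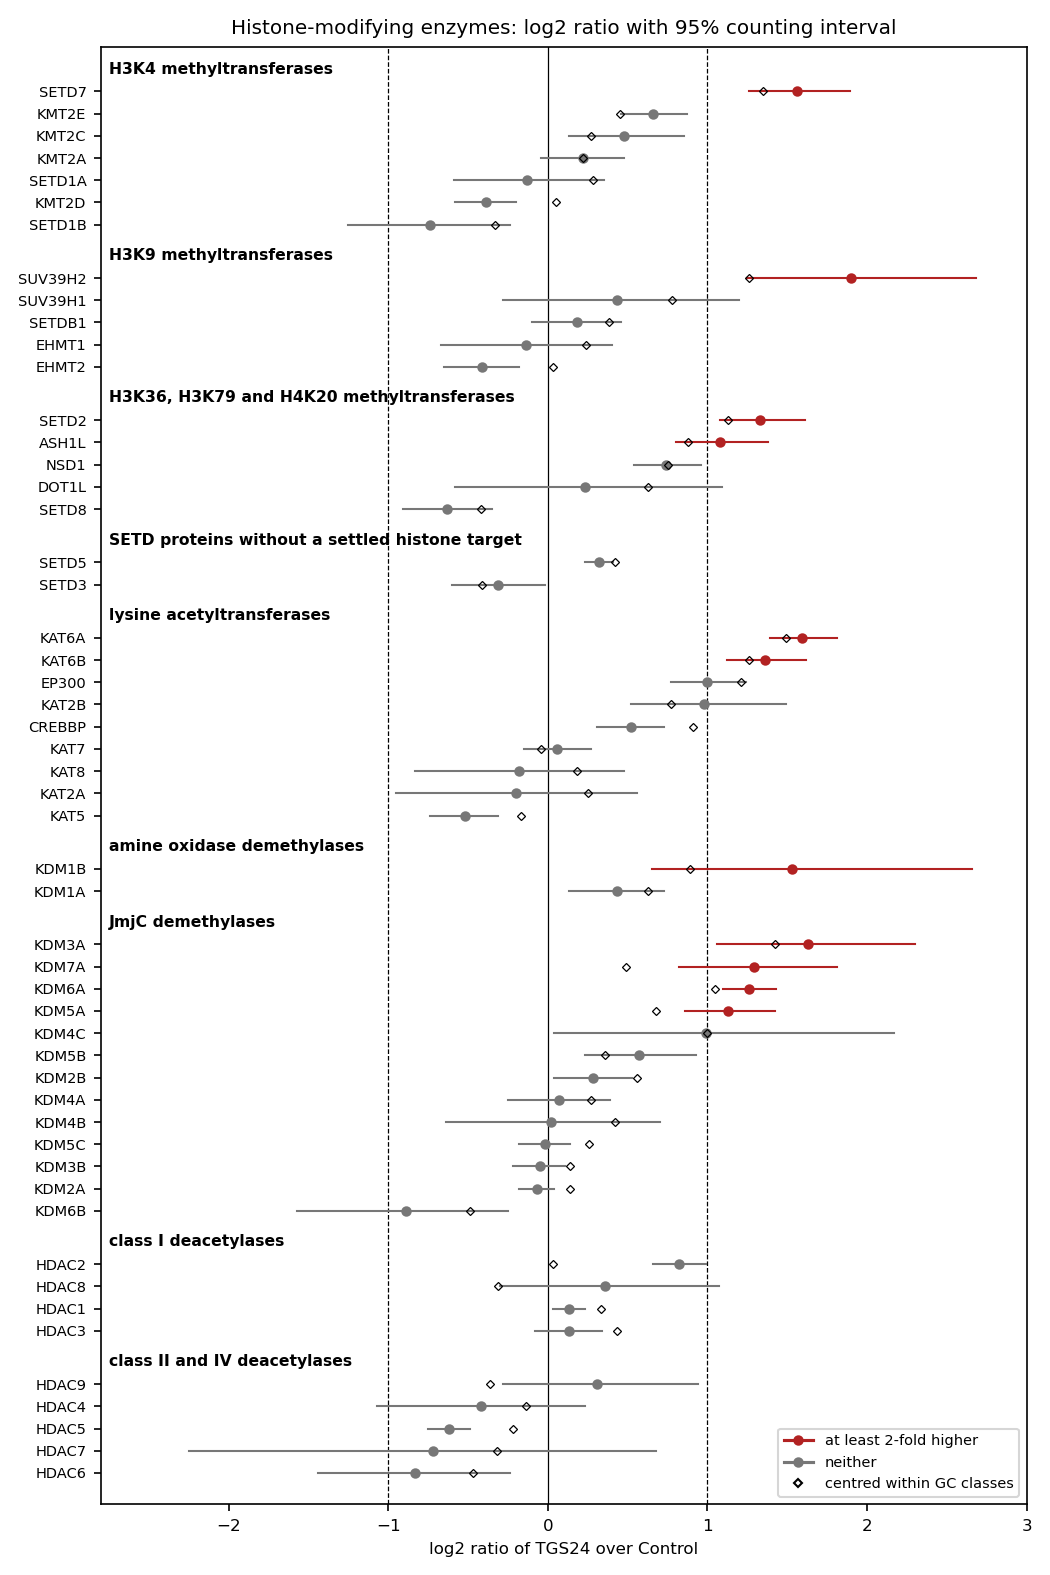
Log2 ratio of TGS24 over Control for the 52 measured genes, by role, with 95% counting intervals as lines and the value after centring within GC classes as open diamonds. Dashed lines mark 2-fold. The 11 red genes are at least 2-fold higher, from ASH1L at 1.08 to SUV39H2 at 1.90, and no deacetylase is among them.

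Levels per transcript length, as RPKM on TMM-scaled totals, spanned a wide range. HDAC1, a catalytic subunit of the NuRD, Sin3 and CoREST corepressors, had the highest level, 127 in Control and 139 in TGS24. SETD5, a SET-domain protein that works with corepressor complexes, followed with 49.0 and 61.1. In Control the next levels were 38.7 for HDAC5, 35.4 for KDM2A, 32.5 for HDAC3 and 31.9 for KAT5. In TGS24 they were 35.6 for HDAC3, 34.7 for KDM6A, 33.8 for KDM2A and 25.1 for HDAC5. KDM6A thus moved up in the order, from 14.5 in Control, while HDAC5 and KAT5, at 22.2 in TGS24, moved down. At the low end of the measured genes stood HDAC7 at 0.519 and 0.299, KDM4C at 0.532 and 1.09 and DOT1L at 0.603 and 0.708, where neighbours cannot be ordered beyond counting error.

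**Figure D2:**
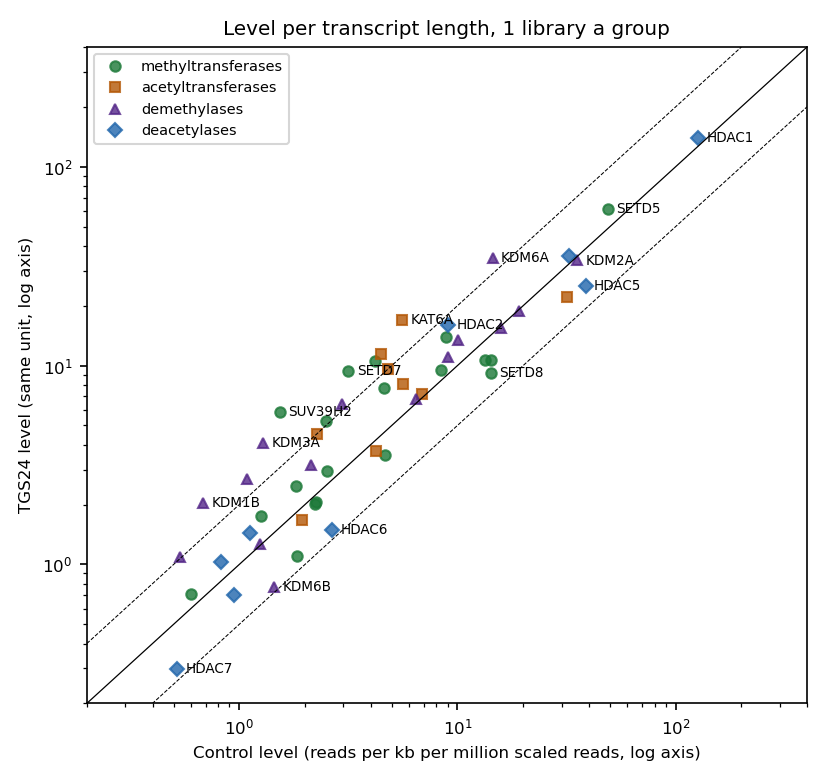
Level per transcript length in the Control library (horizontal) against the TGS24 library (vertical), both as RPKM on TMM-scaled totals on log axes, 1 point a measured gene, coloured by enzyme family. The solid line marks equal levels and dashed lines 2-fold. HDAC1 lies near the solid line at 127 and 139, and KDM6A above the upper dashed line at 14.5 and 34.7.

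Among enzymes named for H3K4 methylation, 1 of 7 measured was higher and none lower, with a median log2 ratio of 0.22. The higher share is 14.3%, beside 12.7% of all genes tested and 20.6% of well-covered coding genes. SETD7, which adds a single methyl group to H3K4 and to other proteins, had 197 and 1127 reads, 2.96-fold higher (1.26 to 1.89). KMT2E, which binds methylated H3K4 by a PHD finger and whose SET domain is not known to be active, had the most reads of the group summed over both libraries, 515 and 1568, with a log2 ratio of 0.66 (0.46 to 0.87). KMT2C and KMT2D, which place single methyl groups on H3K4 at enhancers, lay on opposite sides of 0. KMT2C had 180 and 484 reads and a ratio of 0.48 (0.13 to 0.85), and KMT2D had 769 and 1127 reads and a ratio of -0.39 (-0.58 to -0.20). After centring on GC content, described below, KMT2C stood at 0.27 (-0.08 to 0.64) and KMT2D at 0.05 (-0.14 to 0.24). They were then no longer on opposite sides. KMT2C has near-identical partial copies in the genome, so its reads are uncertain. KMT2A, the leukaemia gene MLL, had 357 and 800 reads with a ratio of 0.22 (-0.04 to 0.48). Of the enzymes that make most trimethylated H3K4, SETD1A had 123 and 217 reads, -0.13 (-0.59 to 0.35), and SETD1B 128 and 147 reads, -0.74 (-1.25 to -0.24). SETD7 therefore stood apart from the KMT2 and SETD1 genes, whose ratios stayed between -0.74 and 0.66.

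KMT2B had 0 reads in both libraries in its protein-coding row, and 0 reads allow up to 3. The authors' table holds a further KMT2B row of another biotype, so this 0 is a listing and says nothing firm on KMT2B expression.

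In the H3K9 group 1 of 5 measured genes was higher and none lower, with a median of 0.18. Higher calls made up 12.7% of all genes tested and 20.6% of well-covered coding genes. A count of 1 of 5 is therefore no result about the group. SUV39H2, which trimethylates H3K9 in heterochromatin, had 40 reads in Control and 294 in TGS24, 3.72-fold higher, the highest ratio of all members at 1.90 (1.25 to 2.68). Its relative SUV39H1 had 46 and 120 reads and a ratio of 0.43 (-0.28 to 1.20). The levels per length of these relatives were alike in Control, 1.53 for SUV39H2 and 1.82 for SUV39H1, and apart in TGS24, 5.83 and 2.47. After centring on GC content, described below, SUV39H2 stood at 1.26 and SUV39H1 at 0.78. The interval of their difference, 0.48 (-0.54 to 1.56), then held 0. EHMT2, the G9a enzyme of euchromatic H3K9 dimethylation, had the most reads, 498 and 719, with -0.41 (-0.65 to -0.18), and its partner EHMT1 had 97 and 169 reads with -0.14 (-0.67 to 0.40). SETDB1, which silences retroelements, had 315 and 686 reads and 0.18 (-0.10 to 0.46). SETDB2 had 6 and 12 reads and was not measured. By the 2-fold rule SUV39H2 thus stood alone among the measured H3K9 enzymes.

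Of enzymes for H3K36, H3K79 and H4K20, 2 of 5 were higher. This is 40.0%, against 12.7% of all genes tested and 20.6% of well-covered coding genes. SETD2, which trimethylates H3K36 in transcribed genes, had 289 and 1407 reads, 2.52-fold higher (1.08 to 1.61). ASH1L, which dimethylates H3K36, had 252 and 1031 reads, 2.12-fold higher (0.80 to 1.38). NSD1, which also dimethylates H3K36, had the most reads of the group, 500 and 1615, and a log2 ratio of 0.74 (0.54 to 0.96). Intervals lay above 0 for 24 of all 52 measured members, SETD2, ASH1L and NSD1 among them. The share over all genes was not computed, so this is no result about H3K36 enzymes. After centring on GC content, described below, SETD2 stood at 1.13, ASH1L at 0.88 and NSD1 at 0.75. DOT1L, the H3K79 enzyme without a SET domain, had 38 and 86 reads with 0.23 (-0.58 to 1.09). SETD8, now called KMT5A, which monomethylates H4K20, had 378 and 470 reads with -0.63 (-0.91 to -0.35).

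The remaining SETD genes have no settled histone target. SETD5 had 2837 and 6814 reads, the most of all members, with a log2 ratio of 0.32 (0.23 to 0.41). SETD3, a histidine methyltransferase of actin, had 325 and 504 reads with -0.31 (-0.60 to -0.02). SETD4 with 4 and 14 reads, SETD6 with 6 and 4 and SETD9 with 0 and 6 were too low to measure.

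Acetyltransferases had a median of 0.52 over 9 measured genes, 2 of them higher and none lower. The higher share, 22.2%, is close to the 20.6% of well-covered coding genes, with 12.7% over all genes tested. KAT6A and KAT6B, the MYST-family enzymes MOZ and MORF that acetylate H3, were both higher. KAT6A had 438 and 2550 reads, 3.02-fold higher (1.39 to 1.81), and KAT6B had 314 and 1560 reads, 2.57-fold higher (1.12 to 1.62). EP300, the p300 coactivator that acetylates H3K27 at enhancers, had 392 and 1511 reads and a log2 ratio just under the 2-fold threshold (0.77 to 1.24). CREBBP, its close relative, had 516 and 1426 reads and 0.52 (0.31 to 0.73). KAT2B (PCAF) had 93 and 356 reads with 0.98 (0.52 to 1.49), and KAT2A (GCN5) had 51 and 85 reads with -0.20 (-0.95 to 0.56). The other MYST enzymes did not share the KAT6 ratios. KAT7 (HBO1) had 564 and 1133 reads with 0.06 (-0.15 to 0.27), KAT8 (MOF), the H4K16 enzyme, 66 and 112 reads with -0.18 (-0.83 to 0.48), and KAT5 (TIP60) 621 and 831 reads with -0.52 (-0.74 to -0.31). In the reference annotation 38.6% of KAT5 exon bases are shared with another gene, and the strand handling of the counts is not given in the sources used here.

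Both flavin-dependent demethylases were on the higher side. KDM1B (LSD2) had 22 and 127 reads, 2.88-fold higher with a wide interval (0.65 to 2.66), and KDM1A (LSD1), the H3K4 demethylase of CoREST, had 261 and 676 reads with 0.43 (0.13 to 0.73). After centring on GC content, described below, KDM1B stood at 0.89, under the threshold, and KDM1A at 0.63. On protein-coding totals KDM1B stood at 1.18, still called higher, and KDM1A at 0.07 (-0.23 to 0.37).

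JmjC demethylases had 4 of 13 measured genes higher and none lower, which is 30.8%, against 12.7% of all genes tested and 20.6% of well-covered coding genes, with a median of 0.28. After centring on GC content, described below, 2 of the 13 were higher. The H3K27 demethylase KDM6A (UTX), a partner of KMT2C and KMT2D, had 726 and 3357 reads, 2.40-fold higher (1.10 to 1.43). KDM6B (JMJD3), the H3K27 demethylase known as induced by inflammatory signals, had 82 and 84 reads. Its ratio was the lowest of all measured members, -0.89 (-1.57 to -0.25). On protein-coding totals it reached -1.24 and a lower call, and centred on GC content it stood at -0.49 (-1.16 to 0.15). KDM3A, an H3K9 demethylase known as a hypoxia-induced gene, had 54 and 328 reads, 3.10-fold higher (1.06 to 2.30), while KDM3B had 920 and 1708 reads with -0.05 (-0.22 to 0.11). KDM7A, which removes H3K9 and H3K27 methylation, had 86 and 408 reads, 2.44-fold higher (0.82 to 1.81). The 4 higher genes of this class, KDM5A below among them, act on different histone marks. KDM6B and KDM3B, the nearest relatives of KDM6A and KDM3A, were not higher. Centred on GC content KDM7A stood at 0.49, under the threshold.

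The H3K4 demethylase KDM5A had 268 and 1132 reads, 2.19-fold higher (0.86 to 1.42). KDM5B, often high in breast tumours, had 186 and 534 reads with 0.57 (0.23 to 0.93), and KDM5C had 988 and 1873 reads with -0.02 (-0.18 to 0.14). These 3 genes act on the same mark and had different ratios. Centred on GC content, KDM5A stood at 0.68, KDM5B at 0.36 and KDM5C at 0.26. The interval of the difference of KDM5A and KDM5B, 0.32 (-0.14 to 0.77), then held 0. The H3K36 demethylase KDM2A had the most reads of the JmjC class, 2091 and 3848, and a ratio of -0.07 (-0.18 to 0.04). KDM2B, which recruits Polycomb to CpG islands, had 402 and 942 reads with 0.28 (0.04 to 0.53). Of the KDM4 enzymes, which act on H3K9 and H3K36, KDM4A had 245 and 495 reads with 0.07, KDM4B 60 and 117 reads with 0.02, and KDM4C 21 and 83 reads with 0.99 (0.04 to 2.17). KDM4C was short of the threshold by a margin far inside its counting error. In the reference annotation 48.5% of KDM4A exon bases are shared with other genes, its antisense gene among them, so its reads are uncertain without strand. KDM4D with 2 and 2 reads, KDM4E with 4 and 2 and KDM8 with 4 and 6 were not measured.

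No deacetylase passed 2-fold among the 9 measured, in either direction, against 12.7% higher and 6.31% lower of all genes tested, so that 0 of 9 is no result about the class. On protein-coding totals HDAC6 was called lower, at -1.18, and centred on GC content it stood at -0.47 (-1.09 to 0.11). The class I enzymes, of which HDAC1, HDAC2 and HDAC3 are the catalytic subunits of corepressor complexes, had ratios above 0. HDAC1 had 2291 and 4823 reads with 0.13 (0.03 to 0.23), HDAC2 759 and 2585 reads with 0.82 (0.66 to 0.99), HDAC3 540 and 1138 reads with 0.13 (-0.08 to 0.34), and HDAC8 54 and 134 reads with 0.36 (-0.30 to 1.07). Scaled to protein-coding totals the class I median was -0.11 in place of 0.24, so its sign depends on the scaling.

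The class II enzymes, of which HDAC4, HDAC5, HDAC7 and HDAC9 shuttle between nucleus and cytoplasm, had a median of -0.62 over 5 measured genes. HDAC5, a partner of MEF2 factors, had 1746 and 2186 reads with -0.62 (-0.75 to -0.49), the narrowest interval below 0 in the set. HDAC6, the tubulin deacetylase, had 95 and 102 reads with -0.83 (-1.44 to -0.24). HDAC4 had 72 and 103 reads with -0.42 (-1.07 to 0.23), HDAC7 18 and 20 reads with -0.72 (-2.25 to 0.68) and HDAC9 68 and 163 reads with 0.31 (-0.28 to 0.94). Of these, HDAC5 and HDAC6 had intervals below 0, by less than 2-fold. HDAC11, the class IV enzyme, had 6 and 12 reads and was not measured.

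HDAC10 was listed at 0 reads in both libraries. In the reference annotation 55.8% of its exon bases are shared with its neighbour MAPK12, the gene that the series design names, and whether reads on both genes were counted is not given in the sources used here.

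Close relatives within the same 2 libraries share depth and scaling, so the difference of their ratios does not depend on the scaling. Of 14 pairs listed, 12 had both genes measured, and in 9 of these the 95% interval of the difference left out 0. No share over other pairs of genes was computed to set beside this count. After centring on GC content, described below, 2 of the 12 intervals lay above 0 and 1 below 0. In each pair the gene with the higher ratio is named first, so every difference is positive by construction. KDM6A exceeded KDM6B by 2.15 on the log2 scale (1.49 to 2.85) and KDM3A exceeded KDM3B by 1.69 (1.09 to 2.38). SUV39H2 exceeded SUV39H1 by 1.47 (0.45 to 2.54), KAT2B exceeded KAT2A by 1.18 (0.28 to 2.09), and KDM1B exceeded KDM1A by 1.10 (0.18 to 2.29). Smaller differences separated KMT2C from KMT2D, by 0.87 (0.47 to 1.29), HDAC2 from HDAC1, by 0.69 (0.50 to 0.89), KDM5A from KDM5B, by 0.56 (0.10 to 1.01), and EP300 from CREBBP, by 0.48 (0.17 to 0.80). For KAT6A and KAT6B the difference was 0.23 (-0.10 to 0.56), for EHMT1 and EHMT2 0.27 (-0.32 to 0.85), and for SETD1A and SETD1B 0.61 (-0.09 to 1.30). These last intervals hold 0 and do not show that the genes of a pair had the same ratio.

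**Figure D3:**
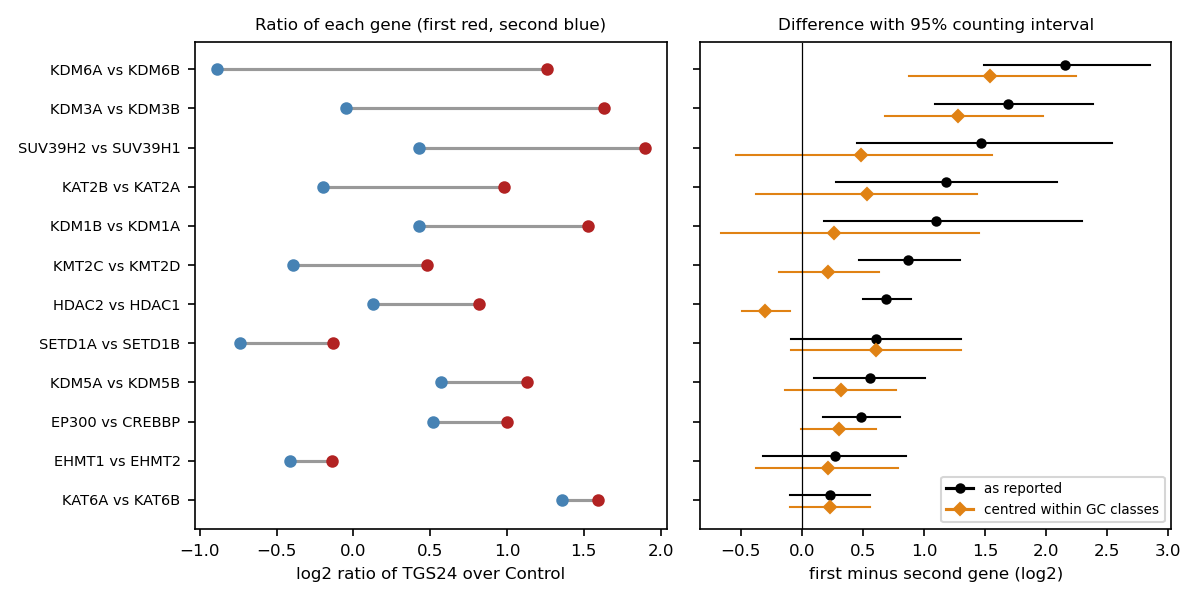
Left, log2 ratio of TGS24 over Control for both genes of 12 related pairs, the first named in red and the second in blue. Right, the difference of the ratios with its 95% counting interval, as reported in black and centred within GC classes in orange. KDM6A against KDM6B at 2.15 and KDM3A against KDM3B at 1.69 stay above 0 in both versions.

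Ratios went with transcript GC content, taken from the longest coding transcript of GENCODE v29. Across the 52 measured members, which are not independent and share both libraries, Spearman's rho between GC content and log2 ratio was -0.76 and Pearson's r was -0.75. Over 9961 genes tested these were -0.46 and -0.42. The 11 higher members had a median GC content of 43.5%, from 38.5% to 45.4%, and the other 41 one of 52.0%. Of 15 members under 45% GC 9 were higher, which is 60.0%, beside 40.3% of coding genes under 45% GC with at least 100 reads. Of 18 members at 55% GC or over none was higher or lower, with a median of -0.30, beside 12.4% lower among coding genes of that class with at least 100 reads and a median of -0.46. The part of GC content in the ratios was not separated from the treatment, since each group is 1 library.

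**Figure D4:**
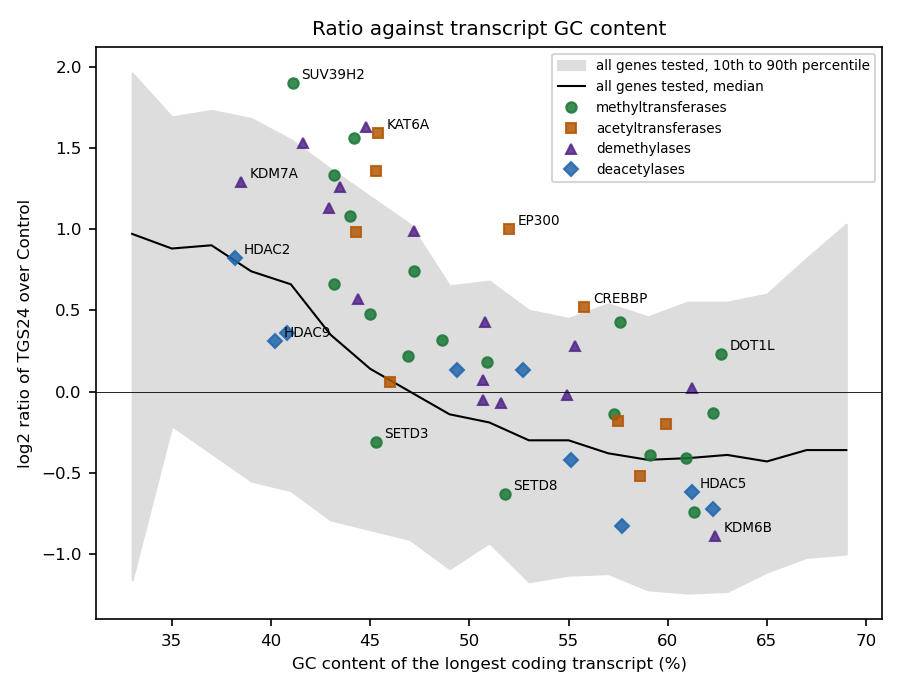
Log2 ratio of TGS24 over Control against the GC content of the longest coding transcript in percent, 1 point a measured member, coloured by family. The black line is the median and the grey band the span from the lowest to the highest decile of all genes tested in bins of GC content. SUV39H2, KAT6A and EP300 lie above the band, while HDAC2 lies near the median line.

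Centring each gene on the median of its GC class left 8 of 52 members at least 2-fold higher, which is 15.4%, against 5.37% of all genes and 7.08% of coding genes with at least 100 reads. None was lower, against 5.97% and 3.07%. Of the 11 higher genes 7 remained, namely KAT6A at 1.49, KDM3A at 1.42, SETD7 at 1.35, KAT6B at 1.26, SUV39H2 at 1.26, SETD2 at 1.13 and KDM6A at 1.05. EP300 joined them at 1.21, and CREBBP stood at 0.91. ASH1L at 0.88, KDM1B at 0.89, KDM5A at 0.68 and KDM7A at 0.49 fell short. The lean of the class II deacetylases narrowed to a median of -0.32, and HDAC2 came to 0.03. Of the related pairs, KDM6A and KDM6B still differed by 1.54 (0.88 to 2.24) and KDM3A and KDM3B by 1.28 (0.68 to 1.97). HDAC2 and HDAC1 were in the opposite order, with a difference of -0.30 (-0.49 to -0.10), and the other 9 intervals held 0.

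Promoter sequences of the pairs that still differed are shown so that the start regions of a higher and a not higher relative can be read side by side. They span 250 bases before to 50 bases after the RefSeq start on GRCh38.p14, all on the plus strand, at chrX:44872938-44873237, chr17:7833967-7834266, chr2:86441121-86441420 and chr5:138352435-138352734. Capitals mark the GC box core GGGCGG, bound by SP1, and the core ACGTG of hypoxia response elements and E-boxes, on either strand. No base belonged to both motifs.
KDM6A: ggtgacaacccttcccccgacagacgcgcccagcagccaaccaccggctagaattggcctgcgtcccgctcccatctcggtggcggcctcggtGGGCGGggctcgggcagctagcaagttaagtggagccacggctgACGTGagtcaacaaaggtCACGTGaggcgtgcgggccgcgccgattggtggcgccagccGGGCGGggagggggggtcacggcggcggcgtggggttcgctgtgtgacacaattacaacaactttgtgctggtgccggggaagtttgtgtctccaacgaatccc
KDM6B: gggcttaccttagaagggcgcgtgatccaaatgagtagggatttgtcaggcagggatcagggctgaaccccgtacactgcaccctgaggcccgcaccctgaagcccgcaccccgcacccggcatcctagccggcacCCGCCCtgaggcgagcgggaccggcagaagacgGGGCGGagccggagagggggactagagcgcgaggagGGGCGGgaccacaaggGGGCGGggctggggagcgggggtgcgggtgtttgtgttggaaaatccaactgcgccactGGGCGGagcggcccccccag
KDM3A: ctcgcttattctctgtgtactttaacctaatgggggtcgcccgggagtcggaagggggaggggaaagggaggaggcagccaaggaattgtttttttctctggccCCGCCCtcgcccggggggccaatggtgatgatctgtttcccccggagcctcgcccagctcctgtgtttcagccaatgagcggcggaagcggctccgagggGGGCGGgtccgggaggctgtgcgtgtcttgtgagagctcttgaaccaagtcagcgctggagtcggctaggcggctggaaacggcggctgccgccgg
KDM3B: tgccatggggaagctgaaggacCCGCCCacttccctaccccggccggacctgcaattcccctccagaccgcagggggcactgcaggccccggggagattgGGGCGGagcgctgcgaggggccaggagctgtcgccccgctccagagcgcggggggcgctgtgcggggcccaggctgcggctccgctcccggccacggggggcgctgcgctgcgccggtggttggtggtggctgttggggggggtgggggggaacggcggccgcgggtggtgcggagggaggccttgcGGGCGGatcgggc
The KDM6A window held 2 GC box cores, 3 matches of ACGTG, where the palindrome CACGTG counts on both strands, and 29 CpG dinucleotides. The KDM6B window held 5 GC box cores, no ACGTG and 24 CpG. The KDM3A window held 2 GC box cores and 23 CpG and the KDM3B window 3 and 30, and neither held ACGTG. Of 35116 RefSeq promoters of this length 15786 held GGGCGG, and 21.4% held ACGTG on either strand, and the median had 14 CpG. All 4 windows are thus rich in CpG, also that of KDM6B, and a match is a description and no binding site.

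Genes of the same complexes that the name rule does not take were read from fixed lists. Of 10 measured COMPASS subunits, which hold the KMT2 and SETD1 enzymes, 2 were higher and none lower, with a median of 0.06. NCOA6, a coactivator of the KMT2C and KMT2D complexes, had 181 and 930 reads, 2.66-fold higher, and PSIP1, which tethers KMT2A to chromatin, had 779 and 3900 reads, 2.60-fold higher. Over all genes tested 12.7% were higher and 6.31% lower. Centred on GC content, NCOA6 stood at 1.51 and PSIP1 at 0.71, under the threshold. The core subunits WDR5, RBBP5, ASH2L and DPY30 were in neither class, with ratios from -0.44 to 0.49, although DPY30 was called lower after GC centring, at -1.08.

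Deacetylase complexes had 7 of 26 measured subunits higher and none lower, with a median of -0.02. This is 26.9% higher, against 12.7% of all genes tested and 20.6% of well-covered coding genes. NCOR1, the corepressor that activates HDAC3, had 2193 and 13318 reads, 3.15-fold higher (1.56 to 1.75). RCOR3 of the CoREST complexes had 38 and 214 reads, 2.86-fold higher. HMG20B had 10 and 59 reads, 2.82-fold higher with a wide interval (0.23 to 3.34). RCOR1, the CoREST scaffold that links KDM1A to HDAC1 and HDAC2, had 119 and 538 reads, 2.33-fold higher. Their catalytic partners HDAC1, HDAC2, HDAC3 and KDM1A were not 2-fold apart, with ratios between 0.13 and 0.82. RCOR2 and PHF21A, further CoREST subunits of the list, had ratios of -0.37 and -0.05. After GC centring 3 of the 26 were higher, which is 11.5%, against 5.37% of all genes. They were HMG20B at 1.89, NCOR1 at 1.45 and RCOR1 at 1.12, while RCOR3 stood at 0.61.

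Acetyltransferase complexes had 4 of 30 measured subunits higher and 2 lower, with a median of 0.07. These shares, 13.3% and 6.67%, are close to the 12.7% and 6.31% of all genes tested. EPC2, a scaffold of the TIP60 complex with KAT5, had 653 and 4261 reads, 3.38-fold higher, and ING3 of the same complex had 245 and 1352 reads, 2.85-fold higher. Centred on GC content EPC2 stood at 1.03 and ING3 at 0.60, under the threshold. DMAP1, also of that complex, had 34 and 19 reads, 3.15-fold lower. The lower call of DMAP1 rests on few reads, with an interval from -3.10 to -0.56. SUPT3H of the SAGA complex had 24 and 17 reads, 2.49-fold lower, with an interval that nearly reaches 0 (-2.90 to -0.05).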

How the data were processed

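RNA from 1 Control and 1 TGS24 spheroid library was used, grouped by sample title. Build hg19 and the tools DESeq2, featureCounts 1.5.2, STAR, Bowtie2 2.2.4 and Trimmomatic are given, without roles, per the submitters' processing notes. For strand, multi-mapping and annotation release the setting is not given in the sources used here. Deposited by the authors were 3 tables of normalized signal per gene, in which nearly all values are multiples of a step specific to their library. The authors' filtered and significant tables add a ratio (fold) and its log2 value. In the filtered table the authors' log2 column holds log2 ratios on gene lines and its own sum, mean and SD on closing lines, so the column as a whole was handled as a score. Division by the step (0.969 for Control, 0.506 for TGS24) returned whole reads for 99.98% of values in each library, at a relative tolerance of 1e-06. Of counts above 0, 75.3% and 73.5% were even, as when both mates count, so intervals used read pairs. Irregular rows (48; repeated, out of order, not whole, or differing between tables), none of a member, were left out.

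TMM factors came from edgeR 4.0.16 in R 4.3.3, over 10081 genes with at least 20 reads. Each ratio has a 95% Clopper-Pearson interval, and pairs of genes an exact conditional odds-ratio interval. PCR reads are not independent molecules, so intervals cover counting error only. No count test across genes is possible with 1 library a group, and none was run. Alternatives were other scalings (DESeq2 1.42.0 median-of-ratios included), read minimums, prior counts, GC and length centring in 20 classes, and intervals on reads. Transcript lengths and GC content came from GENCODE v29 on GRCh38 by Ensembl identifier, for 98.8% of tested genes and all 62 members. RefSeq promoters matched 56 members by symbol or synonym. Members, lists and pairs were chosen with earlier results of these data known. Named genes were to be those at least 2-fold apart, those with most reads in each role and both genes of each pair, with others by reads, and up to 4 genes of each further list. Further subunits of the COMPASS and CoREST complexes are named beyond this rule. The code, tested on simulated data, used pandas 2.3.3, scipy 1.17.1, numpy 2.4.6 and matplotlib 3.10.9 under Python 3.11.15.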

Additional observations from a re-analysis of the deposited data

How the results depend on the processing

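With 1 library a group no replicate could be left out, and no paired analysis was possible because each group holds 1 sample. Across 13 alternatives no measured member called 2-fold changed sign, and 40 of 52 kept their call. SUV39H2, KDM3A, KAT6A, KAT6B and SETD7 were at least 2-fold higher in all 13. Members at least 2-fold higher numbered between 6 and 14. The median over all genes moved to 0.13 with median-of-ratios factors, 0.16 without a filter, 0.15 with at least 100 reads, -0.16 with TMM over genes of at least 100 reads and -0.34 with protein-coding totals, an alternative chosen after seeing the data. Higher calls, 66.8% of all 2-fold calls as reported, were then 78.0%, 75.5%, 82.0%, 51.6% and 30.5%, and 47.3% after GC centring.

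On protein-coding totals 6 members were higher and 3 lower (HDAC6 at -1.18, KDM6B at -1.24 and SETD1B at -1.09). The members' median was -0.10, and those of JmjC demethylases, SETD proteins, class I and class II deacetylases were -0.07, -0.35, -0.11 and -0.98. Over all genes 651 were then higher and 1485 lower. Companion lists had 2 higher and 4 lower acetyltransferase subunits, 2 higher readers, 2 higher and 1 lower deacetylase subunits with a median of -0.37, and 2 higher other enzymes with a median of -0.27. With TMM over genes of at least 100 reads 1 member was lower (KDM6B), class I deacetylases had a median of 0.08 and 3 readers were higher. With at least 100 reads 246 genes were lower, with 0 lower acetyltransferase subunits, 1 reader and 1 other enzyme. Centred within GC classes 535 genes were higher, with 1 higher and 1 lower COMPASS subunit, 2 higher acetyltransferase subunits, 2 higher and 0 lower readers, 3 higher deacetylase subunits and 2 higher other enzymes. HDAC2 minus HDAC1 was then -0.30 and KMT2C minus KMT2D 0.21. Length centring gave 1 lower member (KDM6B at -1.09), 1 lower acetyltransferase subunit and 1 lower reader. Median-of-ratios factors and no filter each gave 1 lower acetyltransferase subunit and 0 lower readers, and without a filter the SETD proteins had a median of 0.48, over more genes. Beyond the number of genes tested, the cause was not tested. Intervals hold counting error only, and under 20 reads no ratio was read.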

Other observations

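Histone-modifying enzymes with other names had 5 of 27 measured genes higher and 2 lower in TGS24, with a median log2 ratio of 0.05. These shares, 18.5% and 7.41%, lie near those of all genes tested, 12.7% and 6.31%, or of well-covered coding genes, 20.6% and 4.17%, and are no result about the list. After GC centring 2 were higher and 2 lower. PHF2, a JmjC demethylase of H3K9, had 68 and 35 reads, 3.55-fold lower (-2.83 to -1.03). SIRT1, the NAD-dependent deacetylase, had 120 and 756 reads, 3.25-fold higher (1.31 to 2.13). NCOA3, a nuclear receptor coactivator amplified in breast cancer, had 20 and 115 reads, 2.86-fold higher. GTF3C4, a subunit of the RNA polymerase III factor TFIIIC, had 42 and 30 reads, 2.56-fold lower. GC-centred log2 ratios were -1.44 for PHF2, 1.03 for SIRT1, 1.06 for NCOA3 and -1.57 for GTF3C4.

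Proteins that read histone marks or bind heterochromatin had 5 of 14 measured genes higher and 2 lower, with a median of 0.50. This is 35.7% and 14.3%, against 12.7% and 6.31% of all genes tested and 20.6% and 4.17% of well-covered coding genes. After GC centring 2 were higher and 0 lower, against 5.37% and 5.97% of all genes. CBX3, the heterochromatin protein HP1 gamma that binds methylated H3K9, had 48 and 386 reads, 4.09-fold higher (1.45 to 2.74). ATRX, a remodeller of heterochromatin, had 957 and 6308 reads, 3.42-fold higher (1.64 to 1.92). PHIP, a bromodomain protein, had 431 and 1940 reads, 2.33-fold higher. BRD3, which binds acetylated histones, had 26 and 18 reads, 2.55-fold lower (-2.88 to -0.14). Centred within GC classes CBX3 stood at 1.31, ATRX at 0.86, PHIP at 0.31 and BRD3 at -1.05.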
